A study of Mus musculus with 9 samples.

Results

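Macrophages and other myeloid cells are recognised by a set of transcripts most of which fibroblasts are not known for, and 40 such genes (9 of them also known from stromal cells) were followed through RNA-Seq of cultured synovial fibroblasts (SFs). The members were chosen by symbol, as known markers of macrophages and myeloid cells, from the 49548 genes of the deposited tables, and all 40 were found. Earlier results of these data were known when the members were chosen. Where the symbol Itgam had 2 gene identifiers, the one with the higher total was kept. The SFs came from the ankle joints of mice aged 8 weeks on a CBA C57BL/6J background, either WT or carrying the human TNF transgene (hTNFtg), a model of TNF-driven destructive polyarthritis. The transgene itself was not analysed here. A total of 3 groups of 3 libraries were compared, namely WT SFs, untreated hTNFtg SFs, and hTNFtg SFs exposed to 1 µg/mL infliximab, an antibody that neutralises TNF, for 48 hours. The sample labels name no treatment for WT and untreated hTNFtg SFs, whereas the study's methods describe vehicle for the same time. Cells with CD45 (Ptprc) on their surface had been removed from the cultures of all groups with an antibody and magnetic beads at passage 1, so the cells that carry these markers had been targeted for removal before RNA was taken. The study's methods speak of biological replicates, but the labels do not say whether each library came from a separate animal or culture, so P values measure the spread between these libraries.

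Macrophages arise and survive under the transcription factor PU.1 and the receptor for colony-stimulating factor 1. They take up antibody-coated and microbial material through Fc, lectin and scavenger receptors, degrade it in lysosomes, and kill microbes with lysozyme and with the oxidants made by the phagocyte NADPH oxidase. In the arthritic joint they line and infiltrate the synovium beside the fibroblasts, and osteoclasts arise from the same lineage.

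Each value below is a normalized count, that is the authors' count of 3′-end reads on a gene after scaling by 1 factor per library and rounding, and values are given in the order of replicates 1, 2 and 3. By the gaps between the rounded values, hTNFtg replicate 1 held about 613288 reads on genes, against 3829249 to 9011526 in the other 8 libraries. One read was therefore worth 6.23 normalized counts in hTNFtg replicate 1, and a count of 3 reads, taken as the floor, stood at 18.7 there and at 1.60 to 3.31 in the others. A group is at the floor for a gene when each of its libraries has at most 3 reads, and a fold against such a group is a lower bound computed against the group's mean floor. The floor covers counting error only. The 14 fibroblast genes checked, among them Col1a1, Pdgfra and Pdpn, were above the floor in all 3 groups, with sums of 45204 to 55020 in WT, 39576 to 48336 in hTNFtg and 37583 to 44553 with infliximab.

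The markers were low in WT SFs and higher in hTNFtg SFs, with or without infliximab. Their counts summed to 826, 2112 and 1077 in WT SFs, to 12173, 6397 and 10399 in untreated hTNFtg SFs, and to 7679, 4575 and 8395 in infliximab-treated hTNFtg SFs. The lowest hTNFtg library thus lay above the highest WT library, while untreated and treated hTNFtg libraries overlapped. These sums were 0.0189% to 0.0472% of a WT library, 0.156% to 0.319% of an untreated and 0.111% to 0.201% of a treated hTNFtg library. In bulk RNA, fewer cells of a type and less RNA per cell cannot be told apart. Of the 40 markers, 21 reached a mean of 10 in WT SFs, 36 in hTNFtg SFs and 34 with infliximab, and 5, 2 and 1 were at the floor.

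Genes were called raised or lowered by the thresholds of the study, an unadjusted P below 0.05 together with a log2 change of 1 or more in either direction, here computed with limma after adding 1 to each normalized count and taking log2. In hTNFtg versus WT SFs, 32 of the 40 markers were raised and 0 lowered, against 3.35% of all 28522 genes tested that were raised and 3.04% that were lowered. The same limma test gave 33 markers an unadjusted P under 0.05 (7.72% of all genes). A quasi-likelihood test of approximate reads with edgeR called 35 markers raised, adding Coro1a, Mrc1 and Spn, and 1 lowered, where it called 5.36% and 3.23% of all genes. The median log2 fold change of the 40 was 3.05, or 2.95 with genes at the floor set to their bound, beside -0.00 over all genes. In 34 markers every hTNFtg library lay above every WT library and in 0 every one lay below, as in 5.63% and 5.8% of all genes. The log2 fold change was positive in 39 markers and negative in 1 (47.2% and 51.3% of all genes). With Benjamini-Hochberg adjustment of limma's P over all genes, 5 markers had an adjusted p under 0.05 (0.48% of all genes did, 0.235% upward and 0.245% downward), and the adjusted p of the other raised markers was between 0.0576 and 0.563. Without the shallow hTNFtg replicate 1, 30 markers were raised (5.35% of all genes) and 0 had an adjusted p under 0.05 (0.0212%). Without WT replicate 2, the WT library in which most markers stood highest, 32 were raised (2.47% of all genes) and again 0 passed the adjusted threshold (0.00358%).

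In infliximab-treated hTNFtg versus WT SFs, 32 markers were raised and 0 lowered (3.86% and 2.95% of 28243 genes), at a median of 2.65 on the log2 scale. Every treated library was above every WT library in 30 markers and below in 0, as in 7.14% and 7.07% of all genes, and the log2 fold change was positive in 38 and negative in 2 (48.9% and 49.5%). By limma with Benjamini-Hochberg adjustment 8 markers, each of them higher with infliximab, had an adjusted p under 0.05 (0.74% of all genes, 0.365% upward and 0.375% downward). Leaving out WT replicate 2 kept the number raised at 32 (3.46% of all genes) and left 0 markers and 0 genes in all with an adjusted p under 0.05. The calls of Cd74, Adgre1, Cybb, Lcp1 and Mrc1 with infliximab versus WT were each lost without 1 of several libraries, WT replicate 1 among them, where their log2 fold changes were 1.48, 1.22, 1.59, 1.56 and 1.18. Between infliximab-treated and untreated hTNFtg SFs, 3 markers were lowered and 1 was raised (0.936% and 1.49% of 28540 genes), and the median log2 fold change was -0.40 (-0.03 with array quality weights). In that comparison limma with Benjamini-Hochberg adjustment gave 0 markers and 0 genes in all an adjusted p under 0.05. An unadjusted P under 0.05 was reached by 4 markers in limma (3.59% of all genes) and by 9 in edgeR (6.08%). In edgeR 1 marker, Cybb, had an adjusted p under 0.05 (0.0318), as had 0.578% of all genes. These comparisons share libraries, the WT group in the comparisons with WT and the untreated hTNFtg group in the comparisons with that group, so they are not independent of one another.

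**Figure D1:**
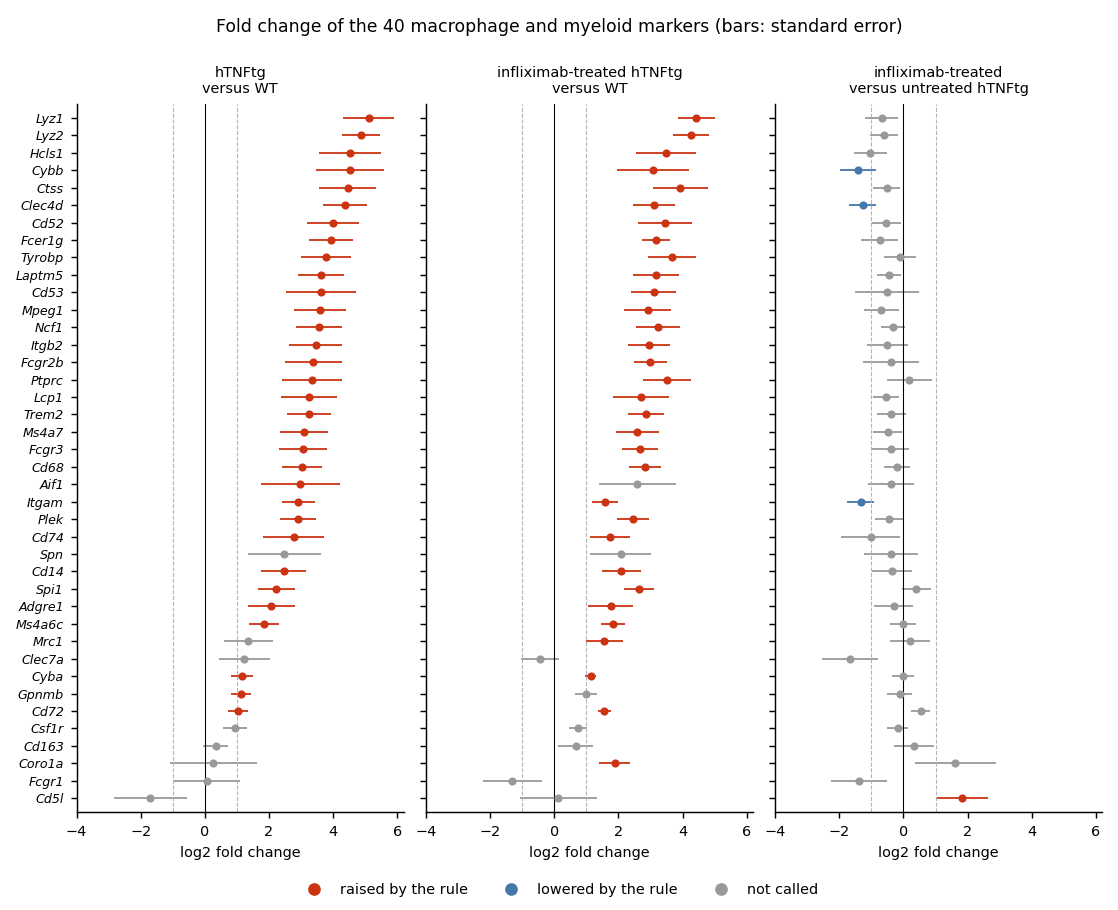
Log2 fold change of each of the 40 markers (points) with its standard error (bars) in the 3 comparisons, ordered by hTNFtg versus WT, with dashed lines at -1 and 1. Most points lie right of 1 in both comparisons with WT (32 raised in each), whereas in infliximab-treated versus untreated hTNFtg SFs most lie between the dashed lines and 3 were lowered.

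PU.1 binds purine-rich DNA with a GGAA core, and the promoters of the markers were searched for it on both strands in RefSeq windows of 300 bases (GRCm38.p6), running from 250 bases before to 50 after the start of the gene. A window was found for 32 of the 40 markers. More than 1 window was searched for 6 of the 32 and for 15.4% of all genes, and a gene was counted as holding a motif when any of its windows did. The letters GAGGAA, in either orientation, occurred in 18 of these 32 (56.2%) and in 8446 of 27025 genes (31.2%), or in 20 of the 38 windows of the markers (52.6%) and 28.3% of all windows. The longer form GAGGAAGT, each of whose matches also holds GAGGAA, occurred in 3 of the 32 (9.38%), namely Cd53, Cd72 and Ctss, and in 997 of 27025 genes (3.69%). The NF-kB site of the immunoglobulin kappa enhancer occurred in 0 of the 32 markers and in 47 of all genes (0.174%). The windows of 3 markers are shown 5′ to 3′ on the strand of the gene, Ctss and Cd53 because they hold the longer form and Laptm5 because its normalized count was the second highest of the markers in hTNFtg SFs. They are chr3:95526536-95526835 (plus strand) for Ctss, chr3:106790100-106790399 (minus strand) for Cd53 and chr4:130913066-130913365 (plus strand) for Laptm5, with GAGGAA or its reverse complement in capitals.
Ctss: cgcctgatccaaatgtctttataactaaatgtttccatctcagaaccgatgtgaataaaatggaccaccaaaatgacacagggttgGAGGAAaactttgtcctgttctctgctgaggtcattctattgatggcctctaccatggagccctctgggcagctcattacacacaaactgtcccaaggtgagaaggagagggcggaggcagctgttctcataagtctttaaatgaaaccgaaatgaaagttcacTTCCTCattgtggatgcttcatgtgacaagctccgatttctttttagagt
Cd53: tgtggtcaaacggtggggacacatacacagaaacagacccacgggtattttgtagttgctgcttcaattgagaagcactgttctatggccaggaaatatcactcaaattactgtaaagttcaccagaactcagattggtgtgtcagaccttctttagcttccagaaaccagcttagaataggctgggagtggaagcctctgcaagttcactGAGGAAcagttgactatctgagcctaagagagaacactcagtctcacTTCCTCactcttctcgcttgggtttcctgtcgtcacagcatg
Laptm5: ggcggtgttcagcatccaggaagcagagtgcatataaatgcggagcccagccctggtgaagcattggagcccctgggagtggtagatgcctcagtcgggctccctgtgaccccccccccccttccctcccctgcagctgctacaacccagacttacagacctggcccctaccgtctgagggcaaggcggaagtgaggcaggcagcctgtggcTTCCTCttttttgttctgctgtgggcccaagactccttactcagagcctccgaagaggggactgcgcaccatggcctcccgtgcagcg
A match describes letters in the window and is not a measured binding site.

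Spi1, which encodes PU.1, was counted at 5, 10 and 6 in WT SFs, at 37, 33 and 36 in hTNFtg SFs and at 51, 27 and 75 with infliximab. No hTNFtg library, treated or not, came as low as the highest WT library. Spi1 was raised in hTNFtg versus WT SFs (5.05-fold by the means, log2 fold change 2.23, standard error 0.58). With infliximab versus WT its log2 fold change was 2.63 (limma, Benjamini-Hochberg adjusted p = 0.0407). Csf1r, the receptor for colony-stimulating factor 1, stood at 101, 125 and 62 in WT, at 255, 128 and 168 in hTNFtg and at 137, 150 and 182 with infliximab. Its log2 fold change against WT was 0.93 and 0.75, which misses the size threshold in both comparisons.

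The Csf1r values cannot be read as those of Csf1r alone. The gene lies on chromosome 18 of mm10 from 61105572 to 61132149 on the plus strand, and its 3′ end shares 871 bases with Hmgxb3, which runs on the minus strand from 61131279 to 61177050. The 2 genes had identical normalized counts in 8 of the 9 libraries and a ratio of 1 to 1.01 over all 9. Cd72, a surface inhibitor of B cells and some myeloid cells on chromosome 4 (43446462 to 43454628, minus strand), shares 1603 bases with Tesk1 on the plus strand (43441939 to 43448064). Cd72 was counted at 270, 231 and 301 in WT SFs, at 455, 470 and 747 in hTNFtg SFs and at 848, 619 and 924 with infliximab, which was 1.88 to 1.99 times the count of Tesk1 in every library. The sources used here do not say whether reads were assigned by strand, so reads of the partners in these pairs cannot be told apart. Other markers whose 3′ end lies inside a protein-coding gene, such as Cyba, Ncf1, Cd52 and Coro1a, held no such fixed ratio to their neighbour. Gtf2ird2, which holds the 3′ end of Ncf1, was nevertheless also higher in untreated hTNFtg SFs (31, 27 and 28) than in WT SFs (6, 19 and 15). With infliximab Gtf2ird2 was at 65, 9 and 63, and whether Ncf1 and Gtf2ird2 share reads was not tested. Of the 40 markers, 24 overlap no other gene. Cd72 was called raised, at a log2 fold change of 1.03 in hTNFtg versus WT SFs (0.93 without WT replicate 2 and 0.80 without hTNFtg replicate 3, which ends the call) and of 1.56 with infliximab versus WT (limma, Benjamini-Hochberg adjusted p = 0.0180). Leaving out Csf1r and Cd72 left 31 of 38 markers raised in hTNFtg versus WT SFs and a median log2 fold change of 3.07. With infliximab versus WT it left 31 raised, and 7 in place of 8 had a limma and Benjamini-Hochberg adjusted p under 0.05. The sums of these 38 were 455, 1756 and 714 in WT SFs, 11463, 5799 and 9484 in hTNFtg SFs and 6694, 3806 and 7289 with infliximab.

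**Figure D2:**
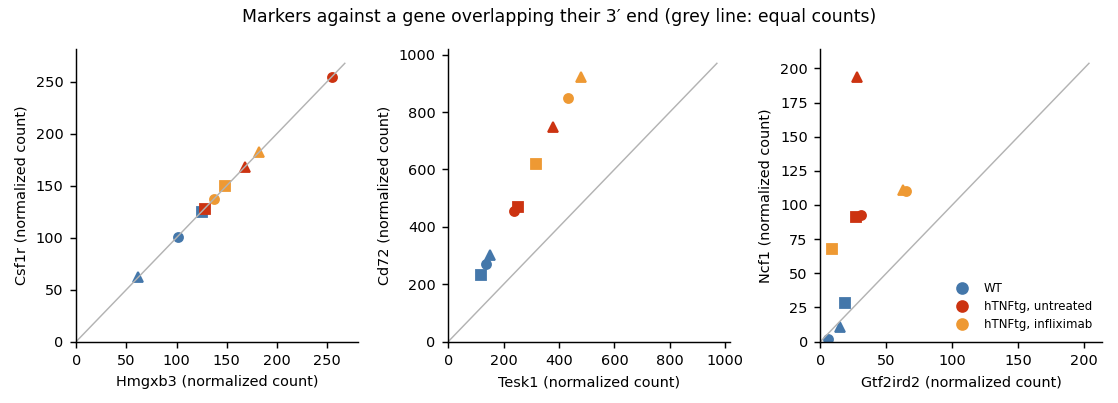
Normalized count of a marker (vertical axis) against that of the gene overlapping its 3′ end (horizontal axis) in the 9 libraries, coloured by group, with a grey line where both are equal. Csf1r lies on the line with Hmgxb3, Cd72 runs at 1.88 to 1.99 times Tesk1, and Ncf1 holds no fixed ratio to Gtf2ird2. Ncf1 and Gtf2ird2 are both higher in every untreated hTNFtg library than in the WT libraries.

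By limma the 2 largest rises were among the lysosomal and antibacterial genes, of which 8 of 8 were raised in hTNFtg versus WT SFs. In edgeR Fcgr2b and Cd53, both at the floor in WT SFs, ranked above these 2. Lyz2, lysozyme of macrophages (ENSMUSG00000069516, chromosome 10 of mm10, 117277334 to 117282274, minus strand), was counted at 43, 277 and 95 in WT SFs, at 5356, 2284 and 2356 in hTNFtg SFs and at 2388, 1277 and 2672 with infliximab. The highest WT library was thus far below the lowest library of either hTNFtg group. The means were 138 ± 123 (SD, n = 3) in WT and 3332 ± 1753 (SD, n = 3) in hTNFtg SFs, a ratio of 24.1, or 48.3 without WT replicate 2. The log2 fold change was 4.86 with a standard error of 0.58 (limma, Benjamini-Hochberg adjusted p = 0.00614). Against WT, infliximab-treated SFs had a log2 fold change of 4.25 (adjusted p = 0.0180), and against untreated hTNFtg SFs one of -0.61, which did not pass. Lyz2 made up 5.21% to 13.1% of the summed markers in WT libraries and 22.7% to 44% in untreated hTNFtg libraries.

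Lyz1, lysozyme of the intestinal Paneth cell and of some macrophages, lies beside it (117287796 to 117292868) and was counted at 1, 7 and 1 in WT SFs, at 299, 81 and 52 in hTNFtg SFs and at 74, 56 and 74 with infliximab. Its log2 fold change in hTNFtg versus WT SFs was 5.10 (standard error 0.80, limma with Benjamini-Hochberg adjusted p = 0.0213), the largest of the 40 by limma. The transcripts of Lyz1 and Lyz2 were identical at 97.0% of the aligned positions in their last 300 bases, where the reads fall, with a shared run of 104 bases. The counting could therefore split reads between the pair, and the Lyz1 values are uncertain to that extent.

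Laptm5, a lysosomal membrane protein of haematopoietic cells, stood at 33, 405 and 76 in WT, at 1090, 887 and 2057 in hTNFtg and at 1038, 635 and 1205 with infliximab. Ctss, the cathepsin that trims the MHC class II invariant chain, was at 1, 37 and 11 in WT, at 461, 140 and 145 in hTNFtg and at 181, 113 and 156 with infliximab. In both genes WT replicate 2 was the highest WT library and still below all hTNFtg libraries. Their log2 fold changes in hTNFtg versus WT SFs were 3.62 and 4.45, with adjusted p-values of 0.0576 and 0.0606 by limma with Benjamini-Hochberg adjustment.

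Cd68, a lysosomal glycoprotein, was counted at 15, 78 and 20 in WT, at 149, 186 and 517 in hTNFtg and at 252, 181 and 208 with infliximab. Mpeg1, the pore-forming perforin-2, was at 1, 15 and 4, then at 143, 39 and 48, then at 45, 21 and 66 in the same groups. Neither overlapped between WT and hTNFtg, and both were raised, at log2 fold changes of 3.03 and 3.59. Cd74, the invariant chain itself, was at the floor in WT with 0, 0 and 2, against 25, 3 and 8 in hTNFtg and 6, 3 and 3 with infliximab. It was at least 4.75-fold higher in hTNFtg than in WT SFs, and at least 2.18-fold without hTNFtg replicate 1, whose value rests on 4 reads. Its call was lost without WT replicate 1 or WT replicate 2 (fitted log2 fold change 2.50 in either case, against 2.76 with all libraries). Gpnmb, a glycoprotein of lysosome-rich cells also known from stromal cells, had the smallest rise of the group with 94, 135 and 121 in WT, 224, 348 and 204 in hTNFtg and 391, 235 and 135 with infliximab (log2 fold change 1.12 in hTNFtg versus WT SFs, but 0.97 without WT replicate 1 and 0.88 without hTNFtg replicate 2, which ends the call). It was not called by limma with infliximab versus WT, although edgeR called it raised (1.11, adjusted p = 0.000631), and treated replicate 3 equalled WT replicate 2.

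The 3 members of the phagocyte NADPH oxidase were raised together. Cybb, the catalytic subunit gp91phox, was counted at 0, 35 and 13 in WT, at 174, 91 and 370 in hTNFtg and at 62, 32 and 149 with infliximab. Ncf1, the cytosolic organiser p47phox, was at 2, 28 and 11 in WT, at 93, 91 and 194 in hTNFtg and at 110, 68 and 111 with infliximab. Untreated hTNFtg libraries were above all WT libraries in both, and with infliximab only Cybb overlapped WT. Their log2 fold changes in hTNFtg versus WT SFs were 4.51 and 3.55. Cyba, the p22phox partner that many cell types express, was at 149, 165 and 138 in WT, at 212, 342 and 514 in hTNFtg and at 353, 294 and 349 with infliximab. Its rise was smaller, at a log2 fold change of 1.15 in hTNFtg and 1.13 with infliximab versus WT, the latter with a limma and Benjamini-Hochberg adjusted p of 0.0286. Without hTNFtg replicate 3 the former was 0.84 and no longer called.

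Of the 5 immunoreceptor adaptors and Fc receptors, 4 were raised in hTNFtg versus WT SFs. Fcer1g, the signalling chain shared by Fc receptors (ENSMUSG00000058715, chromosome 1, 171229572 to 171234365, minus strand), was counted at 9, 28 and 9 in WT SFs, at 710, 109 and 127 in hTNFtg SFs and at 149, 89 and 157 with infliximab. The value of hTNFtg replicate 1 rested on 114 reads, and all treated and untreated hTNFtg libraries exceeded the WT libraries. The log2 fold change was 3.92 (standard error 0.69) in untreated and 3.17 (standard error 0.44) in treated hTNFtg versus WT SFs, with limma and Benjamini-Hochberg adjusted p-values of 0.0334 and 0.0207. Tyrobp, the adaptor DAP12 of Trem2 and other myeloid receptors, stood at 7, 60 and 6 in WT, at 486, 149 and 121 in hTNFtg and at 278, 99 and 250 with infliximab. Its log2 fold changes versus WT were 3.78 and 3.67, with adjusted p-values of 0.0703 and 0.0691 in the limma test.

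Fcgr3, an activating receptor for IgG, was counted at 4, 23 and 11 in WT, at 87, 36 and 257 in hTNFtg and at 77, 44 and 105 with infliximab. Fcgr2b, the inhibitory IgG receptor, was at 0 in all 3 WT libraries, at 31, 4 and 6 in hTNFtg and at 8, 6 and 7 with infliximab. Both were raised in both comparisons with WT. Against the WT floor Fcgr2b was at least 5.41-fold higher in hTNFtg SFs, but at least 1.98-fold without replicate 1, whose value rests on 5 reads. It was at least 2.77-fold higher with infliximab, where the values were closer together (limma, Benjamini-Hochberg adjusted p = 0.0385). The transcripts of Fcgr2b and Fcgr3 were 83.6% identical over their aligned length, but aligned over 56 bases in their last 300. Fcgr1, the high-affinity IgG receptor, stayed between 0 and 9 in all 9 libraries and was not called by limma or edgeR in any comparison.

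Of the 10 genes of the leukocyte surface, 9 were raised in hTNFtg versus WT SFs. Ptprc, which encodes the CD45 used for the depletion, was at 0, 3 and 0 in WT SFs, at 31, 9 and 12 in hTNFtg SFs and at 28, 8 and 22 with infliximab. It was at the WT floor and above it in every hTNFtg library, at least 6.86-fold higher in untreated and at least 7.66-fold higher in treated hTNFtg SFs. Ptprc is thus among the lowest of the raised markers, and its value in hTNFtg replicate 1 rested on 5 reads, without which the bound was 4.16-fold.

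Itgam, the integrin chain CD11b (ENSMUSG00000030786, chromosome 7, 128062640 to 128118491, plus strand), was counted at 15, 12 and 7 in WT, at 143, 54 and 89 in hTNFtg and at 40, 27 and 38 with infliximab. The 3 groups did not overlap, with infliximab-treated SFs between the others. The means were 11.3 ± 4.04 in WT and 95.3 ± 44.8 in hTNFtg SFs (SD, n = 3), and the fitted difference was 2.91 on the log2 scale (standard error 0.51, limma with Benjamini-Hochberg adjusted p = 0.0322). Itgb2, its partner CD18, was at 2, 5 and 1 in WT, at 87, 18 and 27 in hTNFtg and at 15, 19 and 51 with infliximab. Itgb2 was raised in both comparisons with WT, at 3.45 and 2.95 on the log2 scale, without overlap. Adgre1, the F4/80 antigen of mouse macrophages, was at 3, 18 and 7 in WT, at 62, 20 and 33 in hTNFtg and at 46, 11 and 41 with infliximab. Adgre1 barely separated WT from untreated hTNFtg SFs, and its log2 fold change of 2.07 was no longer called without WT replicate 1 (1.53), without WT replicate 3 (2.03) or without hTNFtg replicate 1 (1.66).

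Cd53, a tetraspanin of leukocytes, was at the floor in WT with 0, 0 and 1, against 75, 11 and 3 in hTNFtg and 20, 4 and 11 with infliximab. Cd52, a small surface glycoprotein, stood at 4, 78 and 29 in WT, at 386, 202 and 611 in hTNFtg and at 320, 128 and 381 with infliximab. Neither gene overlapped between WT and either hTNFtg group. Cd53 was at least 11.7-fold higher in hTNFtg SFs, but at least 2.77-fold without replicate 1, whose value rests on 12 reads. With infliximab it was at least 4.62-fold higher (2.97-fold without infliximab replicate 1), and Cd52 was 10.8 times and 7.47 times as high as in WT by the means (24.2 and 16.7 times without WT replicate 2). Ms4a7, a tetraspan of macrophages, was at 2, 16 and 3 in WT, at 50, 32 and 73 in hTNFtg and at 45, 22 and 41 with infliximab. Its relative Ms4a6c was at 25, 13 and 23, then at 106, 48 and 75, then at 66, 52 and 111. The log2 fold changes in hTNFtg versus WT SFs were 3.08 and 1.84, without overlap in either gene. Spn, the sialoglycoprotein CD43, was at 0, 14 and 3 in WT, at 25, 5 and 65 in hTNFtg and at 32, 7 and 16 with infliximab. Limma on the 6 libraries compared did not call Spn in any comparison, whereas edgeR called it raised in hTNFtg versus WT SFs (log2 fold change 2.48, adjusted p = 0.00717) and with infliximab versus WT (1.70), and limma with all 9 libraries called it in the former (2.47).

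Actin regulators and signalling proteins of leukocytes were raised in 4 of 5 cases in hTNFtg versus WT SFs. Hcls1, a cortactin relative, was counted at 0, 20 and 7 in WT, at 112, 59 and 299 in hTNFtg and at 51, 47 and 94 with infliximab. Plek, the protein kinase C substrate pleckstrin, was at 4, 11 and 5 in WT, at 56, 43 and 59 in hTNFtg and at 41, 23 and 58 with infliximab. Both were free of overlap with WT, with log2 fold changes of 4.52 and 2.90 in untreated hTNFtg versus WT SFs. Lcp1, the actin bundler L-plastin, stood at 4, 108 and 25 in WT, at 230, 128 and 402 in hTNFtg and at 169, 102 and 221 with infliximab. Its call in hTNFtg versus WT SFs was lost without hTNFtg replicate 1, although the log2 fold change of 3.24 stayed at that value. Aif1, the calcium-binding IBA1, was at 0, 32 and 31 in WT, at 50, 33 and 296 in hTNFtg and at 67, 25 and 131 with infliximab. Its log2 fold change in hTNFtg versus WT SFs was 2.98, and the call was lost without WT replicate 1 (1.30), hTNFtg replicate 1 (3.30) or hTNFtg replicate 3 (2.03).

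Coro1a, a coronin of leukocytes, was the exception, counted at 15, 13 and 13 in WT, at 0, 70 and 76 in hTNFtg, and at 82, 23 and 79 with infliximab. The 0 in hTNFtg replicate 1 allows a value of up to 18.7 at that depth. Limma did not call Coro1a in hTNFtg versus WT SFs (log2 fold change 0.27, standard error 1.36), whereas edgeR called it raised (1.98, adjusted p = 0.00698). With infliximab versus WT limma called it raised (1.89, standard error 0.48), but not with all 9 libraries in one fit (standard error 1.27).

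The pattern, lectin and scavenger receptors were the least uniform group, with 3 of 7 raised in hTNFtg versus WT SFs. Clec4d, a C-type lectin for mycobacterial glycolipid (ENSMUSG00000030144, chromosome 6, 123262111 to 123275265, plus strand), was counted at 4, 24 and 3 in WT, at 293, 146 and 101 in hTNFtg and at 97, 43 and 73 with infliximab, so the 3 groups did not overlap. Its means of 10.3 ± 11.8 in WT and 180 ± 100.4 in hTNFtg SFs (SD, n = 3) gave 4.37 on the log2 scale (limma, Benjamini-Hochberg adjusted p = 0.0213). Trem2, a lipid-sensing receptor that signals through Tyrobp, was at 4, 19 and 4 in WT, at 125, 37 and 86 in hTNFtg and at 59, 42 and 73 with infliximab. Cd14, the lipopolysaccharide co-receptor, was at 4, 13 and 10 in WT, at 25, 38 and 125 in hTNFtg and at 35, 19 and 83 with infliximab. Trem2 and Cd14 did not overlap between WT and either hTNFtg group, with log2 fold changes of 3.23 and 2.46 in untreated SFs.

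The other receptors of this group stayed at 33 normalized counts or below in every library. Cd163, the haemoglobin scavenger receptor, stood at 0 in 7 of the 9 libraries with 1 and 3 in the others, which is at the floor throughout. Mrc1, the mannose receptor CD206, was at 3, 12 and 5 in WT, at 12, 12 and 30 in hTNFtg and at 13, 18 and 29 with infliximab. Mrc1 was not called by limma in untreated hTNFtg versus WT SFs (log2 fold change 1.36, standard error 0.77), though it was by edgeR (1.47), and limma called it raised with infliximab versus WT (1.56, standard error 0.57), a call lost without WT replicate 1 (1.18), WT replicate 3 (1.47), infliximab replicate 2 (1.60) or infliximab replicate 3 (1.27). The beta-glucan receptor Clec7a stayed between 1 and 12 and was not called by limma on the 6 libraries compared, but with all 9 libraries in one fit it was lowered with infliximab versus untreated SFs (log2 fold change -1.67). Cd5l, a secreted scavenger protein of macrophages, was at 0, 33 and 1 in WT, at 0, 0 and 1 in hTNFtg and at 4, 1 and 8 with infliximab, the only marker of the 40 with a negative log2 fold change by limma in hTNFtg versus WT SFs (by the means Fcgr1 was lower too, at 3.67 against 4.67). Against the floor in hTNFtg SFs it was at least 1.49-fold lower, with most of the WT count in replicate 2, without which WT SFs were at the floor too. Limma called it lowered only with array quality weights, whereas edgeR called it lowered (adjusted p = 0.0209).

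**Figure D3:**
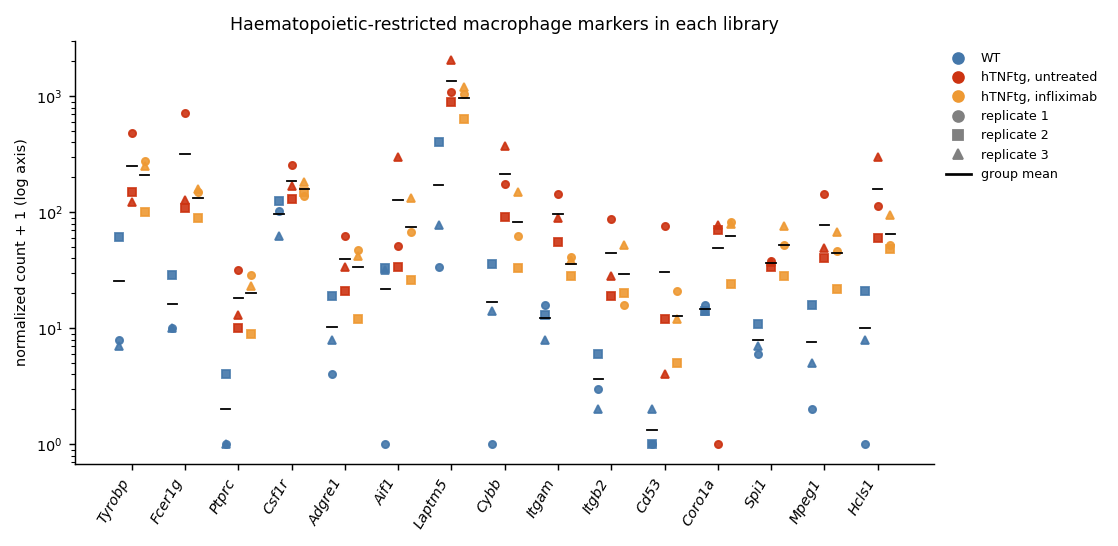
Normalized count plus 1 (log axis) of the 15 markers that are known mainly from haematopoietic cells, in each of the 9 libraries, with the shape giving the replicate and a black bar the mean of the group. WT replicate 2 (blue squares) is often the highest WT library. Coro1a overlaps between WT and untreated hTNFtg SFs, and Adgre1, Aif1 and Cybb overlap between WT and infliximab-treated SFs. Csf1r differs little in size between WT and both hTNFtg groups, but without overlap.

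With infliximab, 33 markers were lower than in untreated hTNFtg SFs and 7 were higher (46.9% and 51.1% of all genes), but 37 of the 40 overlapped between the groups. The 3 without overlap, Clec4d, Itgam and Clec7a, were lower in every treated library, as were 3.44% of all genes, and 0 were higher in every one (3.99% of all genes). The Clec7a value of 12 in hTNFtg replicate 1 rested on 2 reads, below the floor of that library. By the thresholds of the study, Itgam (log2 fold change -1.33, standard error 0.42), Clec4d (-1.26, standard error 0.42) and Cybb (-1.42, standard error 0.55) were lowered and Cd5l was called raised. All 4 had an adjusted p of 0.803 by limma with Benjamini-Hochberg adjustment. Cd5l was at the floor in untreated SFs and its treated mean of 4.33 lay below the mean floor there, so no fold is given. Each of the 4 calls was lost without the shallow hTNFtg replicate 1, where the log2 fold change was -0.84 for Clec4d, -1.45 for Cybb and -0.99 for Itgam. The call of Clec4d was also lost without infliximab replicate 2 (-0.95), and that of Cybb without hTNFtg replicate 3 (-0.90) or without infliximab replicate 1 (-1.37) or 2 (-0.90). That of Cd5l was also lost without hTNFtg replicate 2 or without infliximab replicate 1 or 3. With all 9 libraries in one fit only Itgam of the 4 kept its call, and with array quality weights Clec4d and Cd5l kept theirs. Among genes with a mean of at least 10, 3 of the calls could be tested and 2 were kept. Without hTNFtg replicate 1, 24 markers were lower and 16 higher, without hTNFtg replicate 3 the numbers were 25 and 15, and without infliximab replicate 2 they were 26 and 14. The shares of all genes lower or higher are not given here for these settings, so these numbers cannot be set against all genes. Without hTNFtg replicate 1, the thresholds of the study lowered 3.29% and raised 1.7% of all genes, against 0.936% and 1.49% with all libraries. The mean of Ptprc was 17.3 ± 11.9 in untreated and 19.3 ± 10.3 in treated hTNFtg SFs (SD, n = 3), a ratio of treated to untreated of 1.12, or 1.84 without hTNFtg replicate 1. The mean of Tyrobp was 252 ± 203 and 209 ± 96.3 (SD, n = 3), a ratio of 0.829, or 1.55 without that library.

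The libraries of a group differed in the same direction for many markers. In WT SFs, replicate 2 was the highest library for 31 of the 38 markers that had a single highest library, whereas it was highest for 27.5% of all genes with a mean of at least 10. In infliximab-treated SFs, replicate 3 was the highest library for 23 of 39 markers (36.9% of all genes) and replicate 2 for 1 (30.4%). In untreated hTNFtg SFs, replicate 2 was highest for 2 of 40 markers (23.4% of all genes). Replicates 1 and 3 were highest for 20 and 18, where they were highest for 36.3% and 40.3% of all genes.

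Replicates 1 and 3 of the untreated hTNFtg SFs were high for different markers. Fcer1g was 5.59 times, Lyz1 5.75 times, Tyrobp 4.02 times and Ctss 3.18 times as high in replicate 1 as in replicate 3. Cd53 (25 times) and Fcgr2b (5.17 times) also stood higher there, on 12 and 5 reads. Conversely, Cd68 in replicate 1 was 0.288 times, Fcgr3 0.339 times and Hcls1 0.375 times its value in replicate 3. Aif1 (0.169) and Cd14 (0.200) differed more, but rested on 8 and 4 reads in replicate 1. These ratios are a description of 2 libraries, of which replicate 1 is the shallow one, and were not tested.

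Across the 9 libraries, the genes that ran most like Tyrobp among the 13599 other genes with a mean of at least 10 were St6gal1, a sialyltransferase (Spearman's rho 0.99), and, among those tied at 0.98, Arhgap30, Myo1f, Tgif2 and Ugdh. The markers nearest to Tyrobp by this measure were Ptprc (rho 0.98), Ctss (0.97) and Fcer1g (0.96), at ranks 9, 11 and 20. The 9 points fall into groups with a large difference between WT and hTNFtg, and libraries of different depth, so these values only describe the likeness of the profiles.

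A further 40 macrophage and monocyte genes outside the set, also chosen with earlier results of these data known, were read for comparison. Among them were the complement genes C1qa, C1qb and C1qc, Msr1 and Cx3cr1. The sums of these 40 were 324, 939 and 619 in WT SFs, 1837 to 4008 in hTNFtg SFs and 1518 to 2937 with infliximab. Of the 37 tested in hTNFtg versus WT SFs, 28 were raised and 0 lowered, at a median of 2.76 on the log2 scale, and of the 39 tested with infliximab versus WT, 27 were raised and 0 lowered. Between treated and untreated hTNFtg SFs, 1 of 38 was raised (Folr2, the folate receptor beta of tissue macrophages) and 4 were lowered (C1qb, Csf2rb, Marco and Pirb). The 15 markers known mainly from haematopoietic cells summed to 191, 781 and 243 in WT SFs, to 3455, 1710 and 3762 in hTNFtg SFs and to 2109, 1217 and 2551 with infliximab. Without Csf1r these sums were 90, 656 and 181 in WT, 3200, 1582 and 3594 in hTNFtg and 1972, 1067 and 2369 with infliximab.

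Markers of other cell types that a joint culture could hold were summed in the same way. The 10 osteoclast genes summed to 216, 955 and 273 in WT SFs, to 691, 1103 and 5184 in hTNFtg SFs and to 548, 588 and 2037 with infliximab, so hTNFtg replicate 3 stood apart. Mmp9, a gelatinase that other cells also make, accounted for 4533 of the sum in that library. Of these 10, 4 were raised in hTNFtg versus WT SFs, namely Acp5, Atp6v0d2, Dcstamp and Mmp9, and 6 with infliximab versus WT. The 12 neutrophil genes had sums of 742 to 1081 in WT, 619 to 1077 in hTNFtg and 719 to 984 with infliximab, and 1 of 7 tested, Camp, was raised in hTNFtg versus WT SFs, and 2 of 7 with infliximab versus WT. Elane made up most of the neutrophil sum in every library (519 to 1024), while S100a9, Ly6g, Ltf and Ngp were at 0 in all 9 libraries. The 10 dendritic cell genes summed to 66 to 113 in WT, 131 to 144 in hTNFtg and 102 to 168 with infliximab, with 3 of 8 tested raised and 1 lowered in hTNFtg versus WT SFs, and 4 of 10 raised and 1 lowered with infliximab versus WT.

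Lymphocyte and mast cell genes were low. The 10 T cell genes, of which Cd3e, Cd2 and Cd8a were at 0 in all 9 libraries, summed to at most 40 in any library and 0 of the 7 tested were called by limma in hTNFtg versus WT SFs, where 0 also had an unadjusted P under 0.05. The 7 B cell genes, among which Cd79a, Cd79b and Pax5 were at 0 throughout, summed to 0 to 1 in WT, 6 to 17 in hTNFtg and 5 to 13 with infliximab, with 1 of 2 tested raised in hTNFtg versus WT SFs (Blnk). The 7 mast cell genes summed to at most 3. Of the 14 fibroblast genes, 1 was raised (Pdpn) and 1 lowered (Lum) in hTNFtg versus WT SFs. The 8 endothelial genes summed to 285 to 301 in WT, 112 to 243 in hTNFtg and 184 to 238 with infliximab, nearly all of it Egfl7. Of the 7 tested in hTNFtg versus WT SFs, 4 had a positive and 3 a negative log2 fold change, and limma called 0, with 1 at an unadjusted P under 0.05. With infliximab versus WT, limma called 1 of 3 B cell genes raised, 1 fibroblast gene raised and 1 lowered, and 0 of the T cell, mast cell and endothelial genes. Between treated and untreated hTNFtg SFs, 1 of 7 T cell genes and 1 of 9 dendritic cell genes were raised, 1 of 8 neutrophil genes was lowered, and 0 of the osteoclast, mast cell, B cell, endothelial and fibroblast genes tested were called. The part of any of these cell types in the marker values was not tested.

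**Figure D4:**
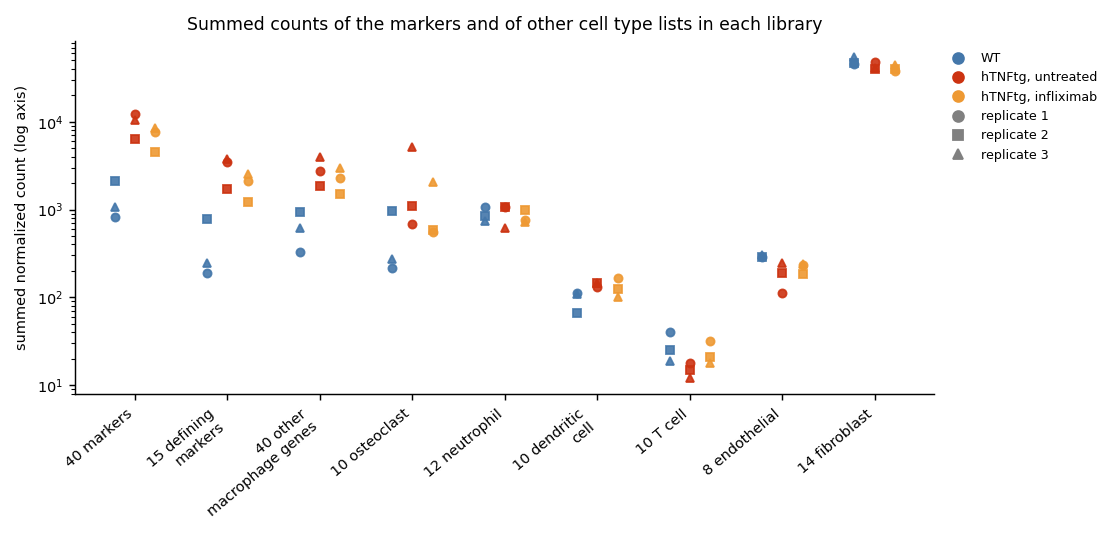
Summed normalized counts (log axis) of the 40 markers and of other lists of cell type genes in each library, coloured by group and shaped by replicate. The 3 macrophage sums separate WT from both hTNFtg groups, the osteoclast sum peaks at 5184 in hTNFtg replicate 3, and the neutrophil sums overlap between all groups.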

How the data were processed

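RNA of cultured SFs was sequenced at the 3′ end (QuantSeq, Ion Proton). According to the study's methods, the authors mapped reads to mm10 with TopHat2 and the remainder with Bowtie2, counted them per gene with GenomicRanges, removed genes without counts and ran DESeq through metaseqR, with versions not given in the sources used here. The values used were deposited by the authors as a score, counts normalized by 1 factor per library and then rounded. For hTNFtg replicate 1 the authors' deposited signal is whole reads times that factor, as 100% of its low values were multiples of 1 read. The authors' columns of fold changes and p-values hold their own comparisons and were not used, nor were 24 other per-sample columns of the 2 tables. The 3 untreated hTNFtg columns are identical in both tables and were used once.

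Groups were compared in R 4.3.3 by limma 3.58.1 with a trended eBayes step, on log2 values after adding a pseudocount of 1, with the 6 libraries compared and genes above 0 in at least 1 of them, and with Benjamini-Hochberg adjustment over all genes tested. The script was tested on simulated data, with 200 of 27849 genes changed 4-fold between hTNFtg and WT. The thresholds of the study found 96% of the 200 and also called 903 unchanged genes. The adjusted threshold found 34% of the 200 and called 1 unchanged gene. The alternatives tried were pseudocounts of 0.5 and 5, a filter at a mean of 10, median-ratio rescaling, array quality weights, all 9 libraries in one fit, a replicate block, the sum of both Itgam identifiers, leaving out each library, and edgeR 4.0.16 on approximate reads, which called 1528 genes raised and 922 lowered in hTNFtg versus WT SFs. Leaving out Csf1r and Cd72 was chosen after seeing the data. Markers past the thresholds in any comparison, and 10 defining ones, were given library by library. The members and lists were chosen with earlier results of these data known.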

Additional observations from a re-analysis of the deposited data

How the results depend on the processing

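Rescaling by median ratios and a pseudocount of 0.5 changed no count by over 1.5 times, and no direction of a called marker reversed under any alternative. The counts of raised markers against WT moved little. Without each library in turn, 28 to 33 markers were raised in hTNFtg versus WT SFs, with a median log2 fold change of 2.59 to 3.60 and 0 to 1 with an adjusted p under 0.05, and 25 of the 32 calls were kept throughout; of all genes 2.47% to 5.35% were raised and 0.00358% to 0.163% passed the adjusted threshold. With infliximab versus WT, 27 to 32 were raised, 0 to 1 lowered and 0 had an adjusted p under 0.05 (median 2.09 to 3.13), with 27 of 32 calls kept, and of all genes 3.46% to 4.93% were raised, 2.66% to 4.18% lowered and 0% to 0.00362% passed. In infliximab-treated versus untreated SFs, 0 to 1 were raised and 1 to 4 lowered (median -0.80 to -0.14), with 0 of 4 calls kept, and of all genes 1.07% to 2.59% were raised and 0.431% to 3.29% lowered. With all 9 libraries in one fit 1 of these 4 calls was kept, and with array quality weights 2. edgeR raised 35 markers in hTNFtg versus WT SFs (5.36% of all genes) and 34 with infliximab versus WT (4.47%). The number with an adjusted p under 0.05, 5 in hTNFtg versus WT SFs, was 3 with a pseudocount of 5, 21 with array quality weights, 19 with all 9 libraries in one fit and 31 with edgeR, while the share of all genes, 0.48%, was 0.41%, 3.52%, 1.34% and 3.22%. The 8 with infliximab versus WT became 20 among genes with a mean of at least 10, 4 with all 9 libraries and 32 with edgeR, while the share of all genes, 0.74%, was 3.62%, 0.244% and 4.68%. The median of hTNFtg versus WT SFs was 2.26 with a pseudocount of 5 and 2.19 with array quality weights. Cd5l was lowered (1 marker) in hTNFtg versus WT SFs with array quality weights (4.64% of all genes were lowered) and with edgeR (3.23%). The raised marker with infliximab versus untreated SFs was lost (0) with a pseudocount of 5, among genes with a mean of at least 10 and with all 9 libraries. In that comparison edgeR lowered 5 markers (2.49% of all genes) and gave 1 an adjusted p under 0.05 (0.578%). With array quality weights 22 markers were lower and 18 higher in that comparison, where the thresholds of the study lowered 4.87% and raised 2.64% of all genes. The cause of these shifts was not tested. Whether replicate numbers pair the samples was not settled. Over 13600 genes, deviations of libraries with the same number correlated at 0.292, -0.14 and 0.353 between hTNFtg and WT. They correlated at 0.0698, 0.197 and 0.265 between treated and untreated, and at 0.102, -0.147 and 0.0125 between treated and WT. The highest correlation with a library of another number was -0.119, 0.197 and 0.237, then 0.126, 0.0288 and -0.0803, then -0.00864, 0.117 and 0.216. With the replicate block, 0 markers, like 0 of all genes, had an adjusted p under 0.05 in either comparison with WT. Under the block 30 markers (3% of all genes) were raised in hTNFtg versus WT SFs and 29 (3.43%) with infliximab versus WT. The block lost 2 of the 32 calls in the former comparison and 3 of the 32 in the latter. Depth limits what hTNFtg replicate 1 can show for markers under 18.7.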
